A study of Mus musculus with 12 samples.

Results

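The 51 genes described here encode the proteins that recognize, license and fire replication origins and that make up the moving replication fork. They were chosen by name, as a list covering 11 roles from origin recognition to nucleosome assembly, and all 51 were found among the 24100 genes of the count table. All 51 also passed the filter on low counts, as did 14263 genes in total. RNA was sequenced from SV40-immortalized mouse embryonic fibroblasts (MEFs) of 2 lines, isolated from different mothers. In each line, Rtf2-/lox MEFs that received Cre (RTF2-deficient) were compared with Rtf2+/+ littermate MEFs that also received Cre (WT). A Hit & Run pMMP Cre retrovirus was used, and cells were collected 72 hrs after transduction, so every group carried the recombinase and the immortalizing antigen, and a deleted allele that the RTF2-deficient MEFs had before Cre was absent from WT. Each of the 4 groups had 3 libraries, 12 in all, which the paper calls technical replicates. The p-values below therefore measure the spread between libraries, and the 2 lines are the only biological replicates.

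Replication starts in G1, when the origin recognition complex, Cdc6 and Cdt1 load the MCM helicase onto DNA. In S phase the kinase Cdc7-Dbf4 and the proteins Cdc45 and GINS turn the loaded MCM ring into an active helicase, polymerase alpha with its primase lays RNA-DNA primers, and polymerases delta and epsilon extend them with the sliding clamp PCNA, which the RFC complex loads. RTF2 is itself a component of the replisome, and the comparison asks whether transcription of the rest of this machinery was altered when RTF2 was lost.

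Before the members, the libraries were checked. Total counts per library lay between 39360167 and 44695002, and members took between 0.406% and 0.509% of a library's counts. Rtf2 was measured at 44.8 to 57.8 CPM (counts scaled to the library's normalized total) in the 6 WT libraries and at 5.44 to 6.66 CPM in the 6 RTF2-deficient libraries. Of 12 fibroblast markers, Col1a1, Col1a2, Fn1 and Vim were between 2156 and 11121 CPM in every library, whereas Dcn and Lum reached at most 2.10 and 1.65 CPM. Ptprc, a pan-leukocyte marker, and Pecam1, an endothelial marker, reached at most 0.122 and 0.113 CPM. Summed over each marker list, epithelial genes were at 2.45 to 13.4 CPM, endothelial at 10.7 to 21.5, haematopoietic at 2.50 to 10.1 and neural at 66.4 to 133 CPM, against 19730 to 32242 CPM for fibroblast genes. Between genotypes, Krt18 (epithelial) and Kdr (endothelial) rose and Sox2 (neural) fell by edgeR (adjusted p = 0.0381, 0.0492 and 0.0499), and no fibroblast or haematopoietic marker passed in this fit to both lines. In line 2 alone 1 of 3 haematopoietic markers fell (edgeR adjusted p = 0.00809), and DESeq2 called 1 fibroblast marker lower in both lines together. WT line 2 stood apart from the other groups. Xist, expressed from the inactive X chromosome, was at 0.022 to 0.132 CPM in its 3 libraries and at 103 to 173 CPM in the other 9, and the Y-linked gene Ddx3y was at 91.8 to 107 CPM in WT line 2 and at most 0.195 CPM elsewhere. The study describes the WT and RTF2-deficient MEFs as littermates, and the labels do not give a sex, so in line 2 a difference of sex and the difference of genotype cannot be told apart. The mean log2 CPM of 18 interferon-stimulated genes was also highest in WT line 2, at 5.01 to 8.58, against 1.43 to 4.07 in both groups of line 1. In RTF2-deficient line 2 this mean was 2.62 and 3.84 in replicates 1 and 2 and 7.10 in replicate 3.

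Levels were compared between members only after division by transcript length. Pcna, the sliding clamp, had the highest mean level per length of the 51 genes at 176 CPM per kb of transcript, followed by Top2a, the topoisomerase that untangles sister chromatids, at 117 and Mcm6 at 105 CPM per kb. Primpol, a primase-polymerase that restarts synthesis beyond a block, had the lowest at 3.49 CPM per kb. Subunits of 1 complex were often at unequal levels. The 6 MCM genes spanned a 2.39-fold range, from Mcm5 at 43.7 to Mcm6 at 105 CPM per kb. The 6 ORC genes spanned 6.51-fold from Orc1 at 7.52 to Orc6 at 48.9 CPM per kb. The 4 GINS genes spanned 6.38-fold from Gins3 at 4.87 to Gins4 at 31.0 CPM per kb. For the kinase Cdc7-Dbf4 the range was 9.86-fold, with Cdc7 at 5.31 and its activator Dbf4 at 52.4 CPM per kb. The 2 measured subunits of polymerase epsilon, Pole and Pole2, were the closest of the complexes, at 11.3 and 13.3 CPM per kb. These levels rest on 1 annotated transcript per gene, and an error in its length would move a level in proportion. Exon bases shared with a gene on the opposite strand, as 1069 of 3780 in Primpol with Cenpu, could also move a level. Whether counting used strand is not stated.

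**Figure D1:**
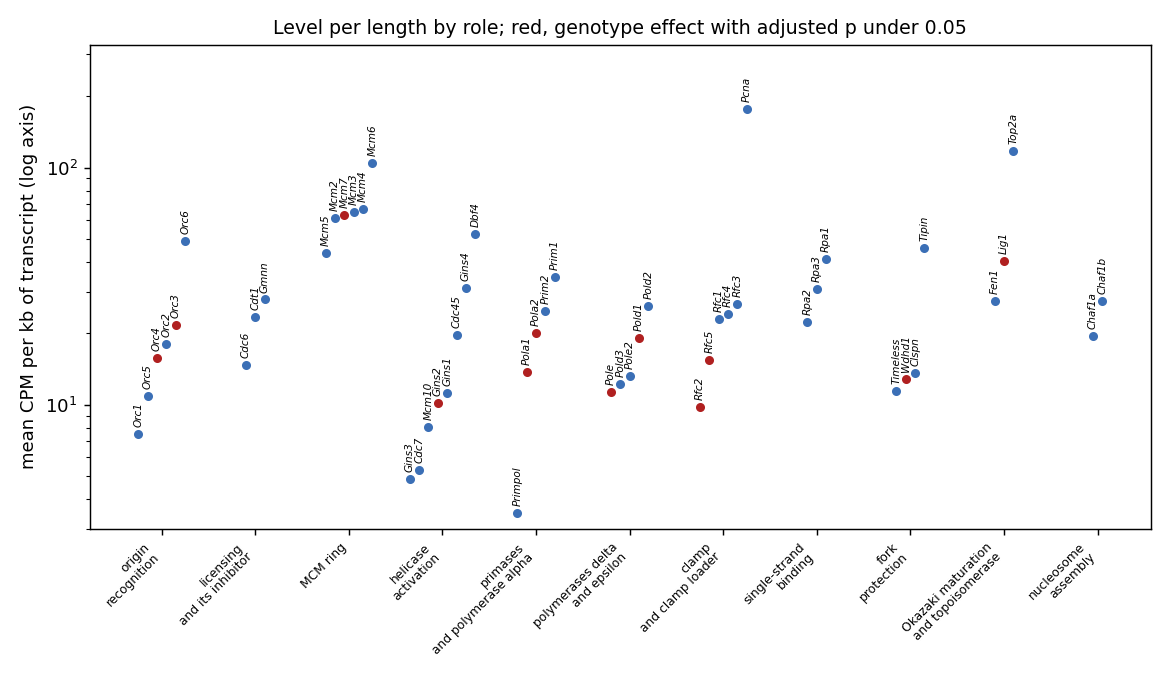
Mean CPM per kb of transcript over 12 libraries, on a log axis, for each of the 51 members, grouped by role; red points are members with an adjusted p under 0.05 for genotype. Pcna at 176 CPM per kb is the highest point and Primpol at 3.49 CPM per kb the lowest, and the highest red point is Mcm7 at 62.9 CPM per kb.

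Many S phase genes are transcribed under E2F factors, which recognize short GC-rich letters after a run of T in promoters. RefSeq promoter windows on GRCm38.p6, each 300 bases from 250 before to 50 after a start site, were held for 42 of the 51 members. In these, the letters TTTCCCGC, TTTGGCGC, TTTCGCGC and TTTGCCGC were searched on both strands. They were present in a window of 16 of 42 members (38.1%), against 4.66% of 11248 tested genes with a window and 2.60% of all 27025 genes with one. Among members that were lower in RTF2-deficient MEFs (below), 5 of 8 with a window held them, and among members not called, 11 of 33. The windows of 5 members are printed 5′ to 3′ on the strand of the gene, because 4 of these genes were lower and Mcm6, with 3 matches, did not pass the test. Capitals mark the matched letters, and adjacent matches in Mcm6 overlap.
Orc3: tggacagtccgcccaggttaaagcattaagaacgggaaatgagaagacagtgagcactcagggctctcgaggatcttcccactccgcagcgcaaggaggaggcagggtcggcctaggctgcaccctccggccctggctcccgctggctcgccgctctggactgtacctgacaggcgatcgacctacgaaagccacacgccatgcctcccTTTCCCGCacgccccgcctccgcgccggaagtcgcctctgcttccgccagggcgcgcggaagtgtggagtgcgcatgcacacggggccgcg
Mcm7: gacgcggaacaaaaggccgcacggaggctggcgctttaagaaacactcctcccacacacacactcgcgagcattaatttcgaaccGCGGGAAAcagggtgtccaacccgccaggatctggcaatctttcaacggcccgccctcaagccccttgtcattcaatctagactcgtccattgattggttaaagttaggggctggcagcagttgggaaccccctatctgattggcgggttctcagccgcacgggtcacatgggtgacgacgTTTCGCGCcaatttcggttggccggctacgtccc
Pola1: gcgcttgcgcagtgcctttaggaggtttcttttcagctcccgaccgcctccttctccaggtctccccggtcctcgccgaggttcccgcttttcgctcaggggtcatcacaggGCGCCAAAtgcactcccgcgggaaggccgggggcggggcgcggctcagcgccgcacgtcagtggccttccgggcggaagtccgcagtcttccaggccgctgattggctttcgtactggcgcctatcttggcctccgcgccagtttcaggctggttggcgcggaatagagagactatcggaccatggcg
Pold1: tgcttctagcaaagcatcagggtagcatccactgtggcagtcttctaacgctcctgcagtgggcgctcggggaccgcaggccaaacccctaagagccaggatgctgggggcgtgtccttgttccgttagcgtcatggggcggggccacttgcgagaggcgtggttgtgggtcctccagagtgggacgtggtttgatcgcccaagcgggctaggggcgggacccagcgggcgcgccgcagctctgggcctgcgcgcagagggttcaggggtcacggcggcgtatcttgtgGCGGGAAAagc
Mcm6: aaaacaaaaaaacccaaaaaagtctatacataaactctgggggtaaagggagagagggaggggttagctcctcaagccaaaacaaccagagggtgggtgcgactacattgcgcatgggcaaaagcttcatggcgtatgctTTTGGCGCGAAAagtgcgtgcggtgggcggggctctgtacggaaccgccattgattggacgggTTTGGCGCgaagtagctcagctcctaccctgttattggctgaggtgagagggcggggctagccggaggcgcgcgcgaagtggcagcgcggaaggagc
The Orc3 window lies at chr4:34614893-34615192, that of Mcm7 at chr5:138171834-138172133, that of Pola1 at chrX:93632106-93632405, that of Pold1 at chr7:44548766-44549065 and that of Mcm6 at chr1:128359656-128359955, all on the minus strand. Counted with the start site as position 1, the match began at -41 in Orc3, at -138 in Pola1 and at 40 in Pold1. Mcm7 had matches beginning at -165 and 17, and Mcm6 at -110, -106 and -47. A second Mcm7 window held no match. Of the other members that were lower, Lig1 held a match in 1 of 3 windows, and Pola2, Rfc5 and Wdhd1 held none in these letters. The pentamer CCAAT was in a window of 25 of 42 members (59.5%) against 42.9% of tested genes, but in 2 of the 8 members that were lower.

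Across both lines, RTF2-deficient MEFs had lower transcript levels of 11 members and a higher level of 1, and 39 members did not pass the test (edgeR's quasi-likelihood test, Benjamini-Hochberg adjusted p under 0.05 over all 14263 genes). The genes that fell were Orc3, Mcm7, Gins2, Pola1, Pola2, Pold1, Pole, Rfc2, Rfc5, Wdhd1 and Lig1, and the gene that rose was Orc4. Of all genes tested, 8.18% fell and 4.98% rose, 13.2% in either direction. In bulk RNA, fewer cells in S phase and less of these transcripts per cell cannot be told apart. The changes were small. The largest was a log2 fold change of -0.49 and the smallest among the genes called was -0.21, which correspond to falls of 28.8% and 13.4%. No member had a log2 fold change beyond 1 together with an adjusted p under 0.05, a combination met by 1.72% of genes. For all 51 members the 95% interval of the change lay within 1 on the log2 scale, and for 46 it lay within 0.5, against 83.8% and 59.7% of genes tested. The median log2 fold change over the members was -0.08, and over all genes tested it was 0.00. In line 1 and line 2 taken apart, 30 members had a negative log2 fold change in both, 13 a positive one in both and 8 had opposite signs. When the 3 libraries of a group were summed to 1 sample, leaving 4 samples, no member and no gene of the table passed, and 16 of 51 members had an unadjusted p under 0.05, where 19.2% of genes did.

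**Figure D2:**
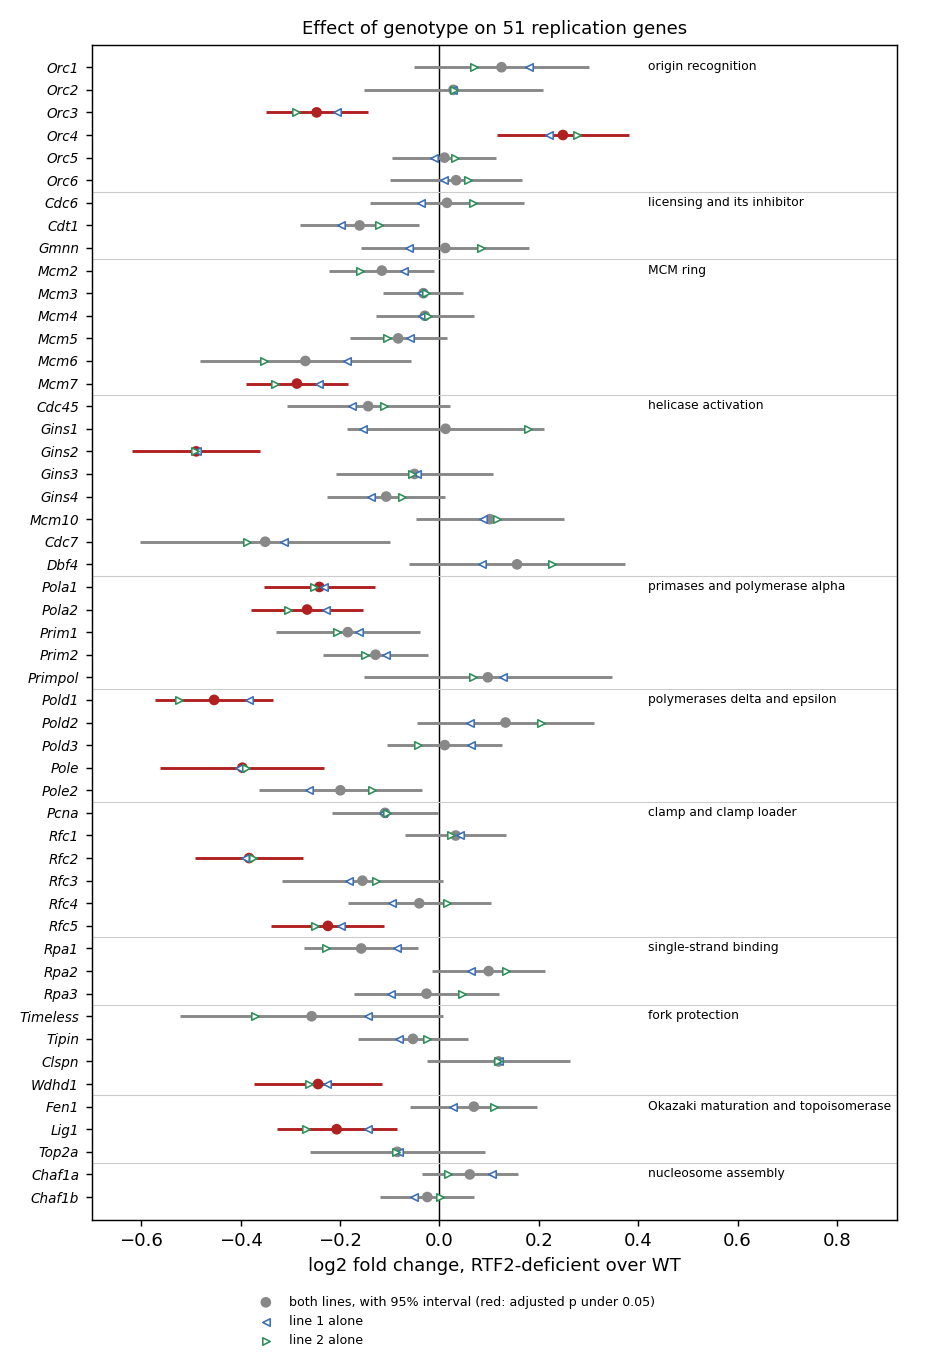
Log2 fold change of each member, RTF2-deficient over WT, with line as a term (points, with 95% intervals as bars) and in each line alone (open triangles, pointing left for line 1 and right for line 2), ordered by role. The 12 red members have an adjusted p under 0.05, 11 of them to the left of 0 and Orc4 to the right, and no interval reaches -1 or 1.

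The replicative polymerases held the gene with the smallest p. Pold1 (chr7:44532744-44548815), the catalytic subunit of polymerase delta, was at 75.3, 73.0 and 73.3 CPM in WT line 1 and at 58.3, 53.5 and 58.0 CPM in RTF2-deficient line 1. Line 2 had it at 78.8, 75.8 and 83.4 CPM in WT and at 52.5, 52.2 and 60.8 CPM in RTF2-deficient MEFs. Every RTF2-deficient library was below every WT library, and the log2 fold change was -0.45 ± 0.054 (SE; edgeR adjusted p = 0.000224). The accessory subunits did not fall with it, Pold2 having a log2 fold change of 0.13 (adjusted p = 0.306) and Pold3 of 0.01 (adjusted p = 0.919), both by edgeR. The log2 CPM of Pold1 minus the mean of Pold2 and Pold3 was 0.53 lower in RTF2-deficient than in WT libraries, and the 2 genotypes did not overlap in this ratio. Pole, the catalytic subunit of the leading-strand polymerase epsilon, was at 97.9, 93.1 and 92.9 CPM in WT line 1 and 76.6, 70.3 and 67.8 CPM in RTF2-deficient line 1. In line 2 Pole was at 98.7, 73.6 and 97.3 CPM in WT and 62.5, 67.8 and 75.5 CPM in RTF2-deficient MEFs. The lines differed in how cleanly genotypes separated, since WT line 2 replicate 2 lay below RTF2-deficient line 2 replicate 3, and over both lines the log2 fold change was -0.40 ± 0.076 (SE; edgeR adjusted p = 0.00518). Its partner Pole2 had a log2 fold change of -0.20 (edgeR adjusted p = 0.107).

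Of the 8 genes that turn the loaded MCM ring into a moving helicase, Gins2 alone passed the test in the edgeR fit to both lines. Gins2 (chr8:120581266-120589075), a subunit of the GINS complex, was at 41.8, 45.6 and 48.5 CPM in WT line 1 and at 30.2, 33.6 and 33.1 CPM in RTF2-deficient line 1. In line 2 it was at 43.9, 52.0 and 46.6 CPM in WT and at 34.2, 31.8 and 35.3 CPM in RTF2-deficient MEFs. The highest RTF2-deficient library was under the lowest WT library, with a log2 fold change of -0.49 ± 0.059 (SE; edgeR adjusted p = 0.000235). The other subunits of the complex had log2 fold changes of 0.01 (Gins1), -0.05 (Gins3) and -0.11 (Gins4). Gins2 shares 2758 of its 3900 exon bases with Gse1 on the opposite strand, and whether counting used strand is not given in the sources used here. Gse1 had a log2 fold change of -0.12 (edgeR adjusted p = 0.745). Cdc7 and Dbf4, the kinase and its activator, had log2 fold changes of opposite sign, -0.35 ± 0.115 and 0.16 ± 0.10 (SE), and neither passed (edgeR adjusted p = 0.0673 and 0.326). Cdc7 ranged from 14.9 to 22.8 CPM in the 6 WT libraries and from 13.1 to 17.3 CPM in the 6 RTF2-deficient libraries, so the genotypes overlapped. Cdc7 was called lower in 8 of 20 alternative fits, which were DESeq2 and voom, calling 19.3% and 24.2% of all genes, and 6 edgeR fits calling at most 12.6%. The log2 CPM of Cdc7 minus that of Dbf4 was -2.88 to -2.36 in WT and -3.37 to -3.06 in RTF2-deficient libraries, without overlap. Set against the rest of their complexes, Gins2, Orc4, Mcm4, Mcm7, Rfc2, Pold1, Pold2 and Prim2 also did not overlap, and the other subunits did. The share of gene pairs at large without overlap was not computed. Cdc45, which joins the ring with GINS, had a log2 fold change of -0.14, and Mcm10, which helps the helicase to start, of 0.10.

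The clamp loader RFC opens PCNA and places it at primer ends. Its subunit gene Rfc2 (chr5:134582690-134598328) was at 52.4, 56.4 and 55.4 CPM in WT line 1 and at 40.3, 42.1 and 42.8 CPM in RTF2-deficient line 1. In line 2 Rfc2 was at 52.9, 59.8 and 55.5 CPM in WT and at 46.4, 40.0 and 43.3 CPM in RTF2-deficient MEFs. Here too the 6 RTF2-deficient libraries were all below the 6 WT libraries, and the log2 fold change was -0.38 ± 0.050 (SE; edgeR adjusted p = 0.000431). Rfc2 shares 952 of 4995 exon bases with Lat2 on the opposite strand, a gene at 0.743 CPM, and Rfc5 shares 499 of 3237 with Wsb2, a gene at 218 CPM with a log2 fold change of 0.18 (edgeR adjusted p = 0.134). Rfc5, another small subunit, fell by 0.22 on the log2 scale (edgeR adjusted p = 0.0151) and also did not overlap between genotypes, at 43.2 to 50.6 CPM in WT and 36.8 to 42.0 CPM in RTF2-deficient libraries. Rfc1, the large subunit, and Rfc3 and Rfc4 had log2 fold changes of 0.03, -0.16 and -0.04. Pcna itself was at 254, 261 and 282 CPM in WT line 1 against 232, 242 and 262 CPM in RTF2-deficient line 1. In line 2 it was at 293, 295 and 283 CPM in WT and 264, 257 and 288 CPM in RTF2-deficient MEFs. Libraries of the 2 genotypes overlapped in both lines, and the log2 fold change of -0.11 (95% interval -0.22 to -0.0021) did not pass (edgeR adjusted p = 0.168). The mouse genome also holds Pcna-ps1 and Pcna-ps2, pseudogenes with which Pcna reads may be shared.

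**Figure D3:**
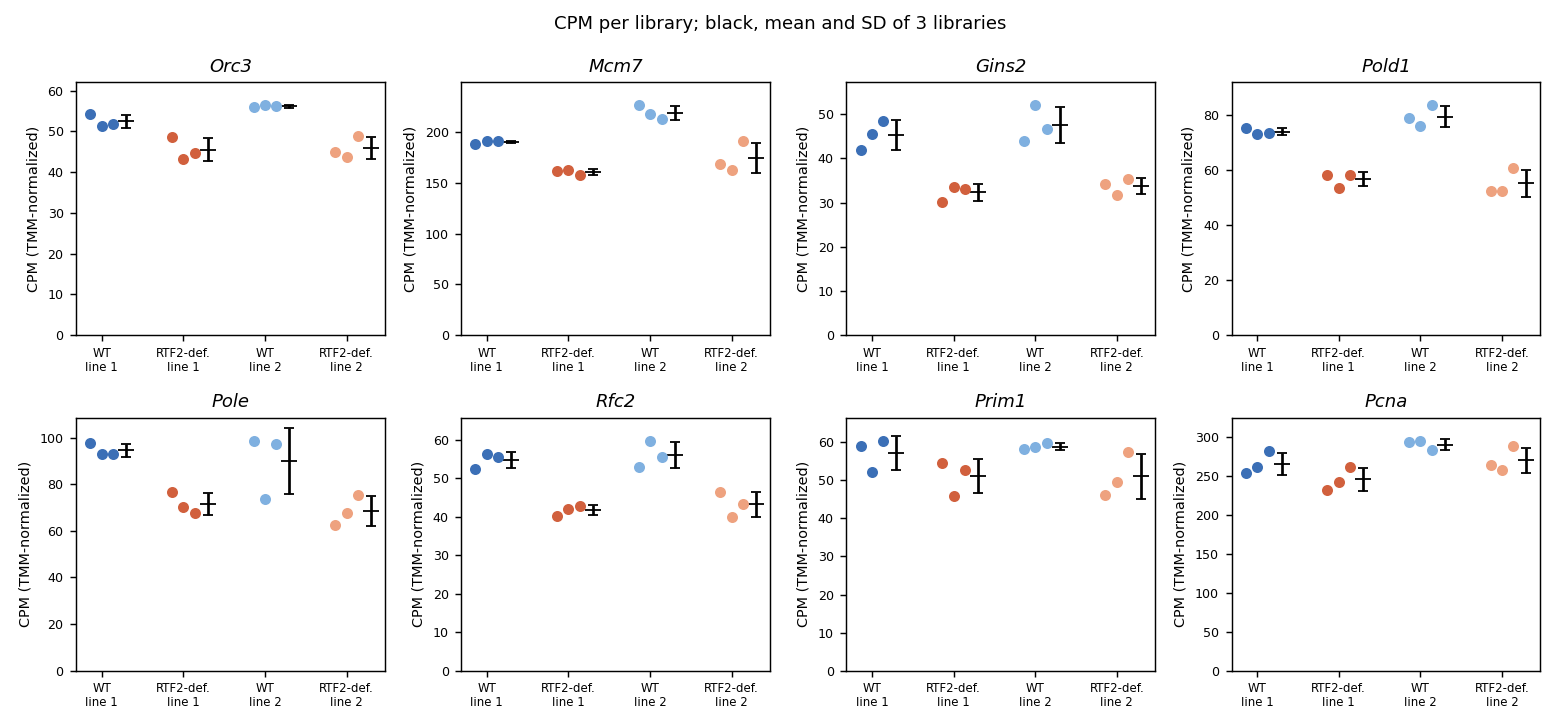
CPM in each of 12 libraries for 8 members, by genotype and line (colored points, 1 per library), with the mean and SD of 3 libraries in black; each vertical axis starts at 0. For Orc3, Gins2, Pold1 and Rfc2 all RTF2-deficient libraries lie below all WT libraries, whereas for Mcm7, Pole, Prim1 and Pcna at least 1 pair of libraries overlaps across the genotypes of the 2 lines.

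PRIM1 and PRIMPOL, the replicative and the damage-bypass primase, are proteins the study works on, and neither transcript passed the test. Prim1 was at 59.1, 52.1 and 60.4 CPM in WT line 1 and 54.5, 45.9 and 52.8 CPM in RTF2-deficient line 1. In line 2 it was at 58.2, 58.7 and 59.8 CPM in WT and 46.0, 49.5 and 57.5 CPM in RTF2-deficient MEFs. The genotypes overlapped in line 1 and not in line 2, and the log2 fold change was -0.18 with a 95% interval of -0.33 to -0.04 (edgeR adjusted p = 0.0901). It passed in 4 of 20 alternative fits, among them the one corrected for GC content (edgeR adjusted p = 0.0449). Primpol was at 14.4, 12.3 and 10.4 CPM in WT line 1 and 15.4, 13.6 and 11.5 CPM in RTF2-deficient line 1, and in line 2 at 16.0, 11.6 and 11.8 CPM in WT and 13.6, 12.3 and 15.4 CPM in RTF2-deficient MEFs. Its groups overlapped fully, with a log2 fold change of 0.10 and a 95% interval of -0.15 to 0.35 (edgeR adjusted p = 0.609). Primpol shares 1069 of 3780 exon bases with Cenpu on the opposite strand, which had a log2 fold change of -0.45 (edgeR adjusted p = 0.0452). Of the partners of Prim1 in the polymerase alpha complex, Pola1 and Pola2 were lower and Prim2 did not pass. Pola1, the catalytic subunit, fell by 0.24 on the log2 scale (edgeR adjusted p = 0.00929), from 73.0 to 90.1 CPM in WT libraries to 64.7 to 71.6 CPM in RTF2-deficient libraries, with no overlap. Pola1 is X-linked (chrX:93304766-93632387), and it changed by -0.23 (log2) between genotypes in line 1, where Xist was high in both, and by -0.25 in line 2. Pola2, the regulatory subunit, fell by 0.27 (edgeR adjusted p = 0.00569) and separated the genotypes within each line. Its WT values were 46.6, 49.5 and 51.9 CPM in line 1 and 54.6, 55.0 and 60.0 CPM in line 2. RTF2-deficient values were 40.0, 42.2 and 44.2 CPM in line 1 and 43.5, 44.9 and 48.9 CPM in line 2. Prim2, the large primase subunit, had a log2 fold change of -0.13 (edgeR adjusted p = 0.103).

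The MCM genes encode the 6 subunits of the helicase ring, and Mcm7 was the 1 that passed. Mcm7 (chr5:138164583-138172111) was at 189, 191 and 191 CPM in WT line 1 and 162, 163 and 158 CPM in RTF2-deficient line 1. In line 2 Mcm7 was at 227, 218 and 213 CPM in WT and 169, 163 and 191 CPM in RTF2-deficient MEFs. Within each line the genotypes did not overlap, and the log2 fold change was -0.29 ± 0.047 (SE; edgeR adjusted p = 0.00202). The other 5 had log2 fold changes between -0.27 and -0.03, so that all 6 were below 0, although Mcm3 was at 0.00 after correction for GC content. Mcm6 had a fitted change of nearly the same size, -0.27, and did not pass (edgeR adjusted p = 0.0917). Its 3 WT line 2 libraries were at 467, 317 and 336 CPM, and its RTF2-deficient line 2 libraries at 268, 269 and 341 CPM. The spread was thus wide in line 2. Its first WT library and its last RTF2-deficient library were the highest of their groups for Mcm6. These 2 libraries had the highest interferon means of their groups. They also had the lowest mean log2 CPM of G2 and M phase genes, 6.65 and 6.79. In RTF2-deficient line 1 the highest interferon mean (2.69) was in replicate 1. Mcm6 was at 259 CPM there and at 263 CPM in replicate 3. A link of Mcm6 to either mean was not tested. Mcm7 overlaps Ap4m1 and Cops6 by 321 and 64 of its 2962 exon bases, and these had log2 fold changes of 0.01 and -0.20 (edgeR adjusted p = 0.971 and 0.0646).

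Among the origin recognition genes 1 fell and 1 rose. Orc3, a core subunit, was at 54.3, 51.3 and 51.9 CPM in WT line 1 and 48.6, 43.3 and 44.7 CPM in RTF2-deficient line 1. In line 2 it was at 55.9, 56.4 and 56.1 CPM in WT and 45.1, 43.8 and 49.0 CPM in RTF2-deficient MEFs. No RTF2-deficient library reached the lowest WT library, and the log2 fold change was -0.25 ± 0.047 (SE; edgeR adjusted p = 0.00504). Orc4, an ATPase-fold subunit of the same core, was at 52.9, 55.5 and 62.6 CPM in WT line 1 against 60.0, 64.3 and 74.9 CPM in RTF2-deficient line 1. In line 2 it was at 60.5, 58.7 and 61.9 CPM in WT and 75.1, 72.9 and 71.6 CPM in RTF2-deficient MEFs. The groups overlapped in line 1 but not in line 2, and the log2 fold change was 0.25 ± 0.061 (SE; edgeR adjusted p = 0.0196). This call was lost without RTF2-deficient line 2 replicate 1 or replicate 2, when no member was higher. Orc4 shares 446 of 4706 exon bases with Acvr2a on the opposite strand, which rose by 0.20 (edgeR adjusted p = 0.0419). The other 4 ORC genes had log2 fold changes between 0.01 and 0.12. Cdt1, which brings MCM to origins, had a log2 fold change of -0.16 (edgeR adjusted p = 0.0761), Cdc6 of 0.02, and Gmnn, the inhibitor of Cdt1, of 0.01.

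The remaining roles held Wdhd1 and Lig1. Wdhd1, the scaffold that ties polymerase alpha to the helicase, ranged from 55.4 to 63.1 CPM in WT libraries and from 44.8 to 54.8 CPM in RTF2-deficient libraries, which did not overlap. It fell by 0.24 on the log2 scale (edgeR adjusted p = 0.0177). Timeless, Tipin and Clspn, which hold the fork together and pass signals to the checkpoint, had log2 fold changes of -0.26, -0.05 and 0.12. Lig1, the ligase that seals Okazaki fragments, was at 131, 135 and 121 CPM in WT line 1 and 120.2, 122 and 108 CPM in RTF2-deficient line 1. In line 2 Lig1 was at 145, 153 and 139 CPM in WT and 124, 111 and 127 CPM in RTF2-deficient MEFs. Only line 2 separated the genotypes for Lig1, its change was -0.21 ± 0.055 (SE; edgeR adjusted p = 0.030), and it kept the call in 4 of 12 fits that left out 1 library. Lig1 shares 217 of 3517 exon bases with Zswim9 on the opposite strand, which had a log2 fold change of -0.18 (edgeR adjusted p = 0.136). Fen1, the flap nuclease, and Top2a had log2 fold changes of 0.07 and -0.08. Rpa1, the large subunit of the single-strand binding protein RPA, had a log2 fold change of -0.16 (edgeR adjusted p = 0.0693), with Rpa2 at 0.10 and Rpa3 at -0.03. The chaperone subunits Chaf1a and Chaf1b, which place histones behind the fork, were at 0.06 and -0.02.

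**Figure D4:**
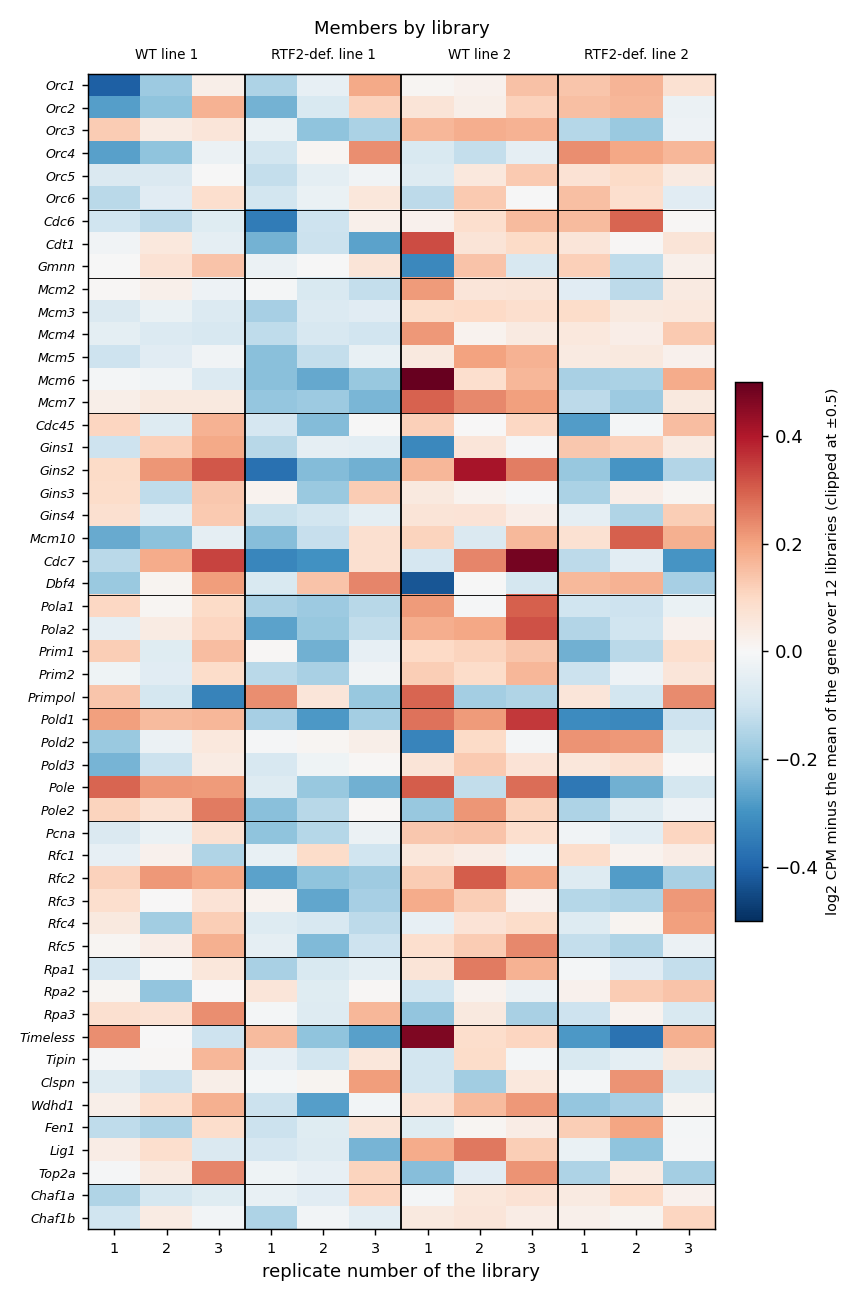
Log2 CPM of each member minus its mean over 12 libraries (color, clipped at -0.5 and 0.5), with libraries in columns by group and members in rows by role. Gins2, Pold1 and Rfc2 are blue in all 6 RTF2-deficient columns and red in all 6 WT columns, and several rows such as Mcm6 and Timeless are darkest in a single WT line 2 library.

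Separation of libraries was also counted without a model. All 6 RTF2-deficient libraries were below all 6 WT libraries for 7 members (Orc3, Gins2, Pola1, Pold1, Rfc2, Rfc5 and Wdhd1), where 4.41% of genes tested showed this, and above them for 0 members, where 1.56% did. Adding Mcm7 and Pola2, 9 members were below within each line, against 6.42% of genes, and 0 were above within each line, against 3.62%. In an exact two-sided permutation test of genotype within lines, such separation by itself gives the smallest value that 400 permutations allow, p = 0.005, so the test adds nothing to this count. Of the other members, the exact permutation p was 0.010 for Orc4, Pole and Lig1 and also for Cdt1, which edgeR did not call, and 0.015 for Mcm2, Mcm6 and Rpa1, also not called. Correction for GC content moved the log2 fold change of Cdt1 from -0.16 to -0.04 and that of Mcm2 from -0.12 to -0.03 (edgeR adjusted p = 0.647 and 0.666), whereas Mcm6 was at -0.28 and Rpa1 at -0.17 after it (adjusted p = 0.0799 and 0.0516).

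Within single lines fewer members passed. In line 1, 3 members fell (Gins2, Pold1 and Rfc2) and 0 rose, where 3.20% of genes passed, 2.52% lower and 0.680% higher. In line 2, 8 members fell (Orc3, Mcm7, Gins2, Pola2, Pold1, Pole, Rfc2 and Lig1) and 0 rose, where 12.5% of genes passed, 7.03% lower and 5.42% higher. Of these, Lig1 was called in line 2 by no alternative edgeR fit. Pole was lost there without the filter on low counts, with replicate number as a block and in most fits leaving out 1 library. By DESeq2, which called more genes of the whole table (5.98% in line 1 and 18.1% in line 2), the line 1 count was 5 lower and the line 2 count 12 lower and 1 higher. By edgeR, Gins2, Pold1 and Rfc2 fell in each line, and by DESeq2 Mcm7 and Pole did so too. The edgeR log2 changes of the first 3 in line 1 and in line 2 were -0.49 and -0.49, -0.38 and -0.52, and -0.39 and -0.38. With the correction for GC content Pold1 was not called in line 1, where Gins2 and Rfc2 were. The line 1 count fell to 0 without WT line 1 replicate 2 or replicate 3, and to 1 without any single RTF2-deficient line 1 library, while the share of all genes called in these fits was 1.33% to 2.02%. In line 2 the count was 2 with RTF2-deficient replicate 2 of that line left out, 3 with its replicate 1 left out, and 10 with its replicate 3 left out, the library with the high interferon mean. The share of all genes called moved with it, to 5.62%, 6.54% and 16.4%. Leaving out the last of the WT line 2 libraries gave 4, with 8.18% of genes called. Whether the effect differed between lines was tested by the interaction. No member passed, by edgeR or by DESeq2, against 1.29% of genes by edgeR (0.533% lower and 0.757% higher) and 2.87% by DESeq2. No member had an unadjusted edgeR p under 0.05, where 8.49% of genes did. The 4 members with the smallest interaction p were Gins1, Rpa1, Pold1 and Lig1. Gins1 changed by -0.15 (log2) in line 1 against 0.18 in line 2, a difference of 0.33 with a 95% interval of -0.02 to 0.68 (edgeR adjusted p = 0.640). It was at 11.3, 13.2 and 13.8 CPM in WT line 1 and 11.0, 11.7 and 11.7 CPM in RTF2-deficient line 1, and in line 2 at 9.71, 12.7 and 12.1 CPM in WT and 13.3, 13.1 and 12.5 CPM in RTF2-deficient MEFs. For Rpa1 the line 2 effect minus the line 1 effect was -0.14, for Pold1 -0.14 and for Lig1 -0.13, and each 95% interval included 0. Rpa1 was at 197, 209 and 217 CPM in WT line 1 and 187, 198 and 202 CPM in RTF2-deficient line 1, and at 219, 250.1 and 235 CPM in WT line 2 and 207, 201 and 192 CPM in RTF2-deficient line 2, so its genotypes overlapped in line 1 only.

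The WT lines were compared to set the genotype effect beside the difference between lines. They share their libraries with the comparisons above. Xist, Ddx3y and the interferon means also differed between the WT lines. Line, sex and interferon state therefore cannot be told apart in this comparison. Of all genes, 14.0% differed between WT line 2 and WT line 1 (edgeR adjusted p under 0.05; 7.31% lower and 6.70% higher), and 0 members did. At an unadjusted p under 0.05 there were 12 of 51 members, where 28.1% of all genes passed. By DESeq2, which called 19.3% of genes between the WT lines (1463 lower and 1285 higher), Mcm3, Mcm5 and Mcm7 were higher in WT line 2, and 0 members were lower. In WT line 2, 40 of 51 members had a positive log2 difference, with a median of 0.08, against 7451 of 14263 genes and a median of 0.02 in the whole table. The 4 members with the smallest p were Mcm5 at 0.20, Mcm7 at 0.20, Mcm3 at 0.15 and Pola2 at 0.20, and the lowest edgeR adjusted p was 0.0629. Mcm5 was at 137, 142 and 146 CPM in WT line 1 and 153, 169.7 and 167 CPM in WT line 2, which do not overlap. Mcm3 was at 186, 192 and 187 CPM in WT line 1 and 209, 210.0 and 207 CPM in WT line 2, which also do not overlap. In RTF2-deficient MEFs Mcm5 was at 128, 136 and 144 CPM in line 1 and 152, 152 and 149.7 CPM in line 2, and Mcm3 at 175, 187 and 189 CPM in line 1 and 209, 203 and 203 CPM in line 2.

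GC content moved with the genotype effect over the whole table. In the tertile of genes with the highest transcript GC content (53.61% and above) 15.6% of genes fell and 3.22% rose, and in the tertile with the lowest (up to 47.25%) 3.06% fell and 6.66% rose. Members had a median GC content of 48.55% against 50.42% for all genes tested. The 11 members that fell had a median of 50.61%, from 41.47% to 60.74%. Of these, 3 were among the 21 members in the lowest tertile, 6 among the 21 in the middle tertile and 2 among the 9 in the highest. In the middle tertile 6.71% of genes fell. With a correction for GC content in each library, 12 members were lower and 1 higher, where 6.72% and 5.91% of genes were. Lig1 was lost and Cdc7 and Prim1 were gained, and Pold1, with the highest GC content of the members, moved from -0.45 to -0.32 (edgeR adjusted p = 0.00301).

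**Figure D5:**
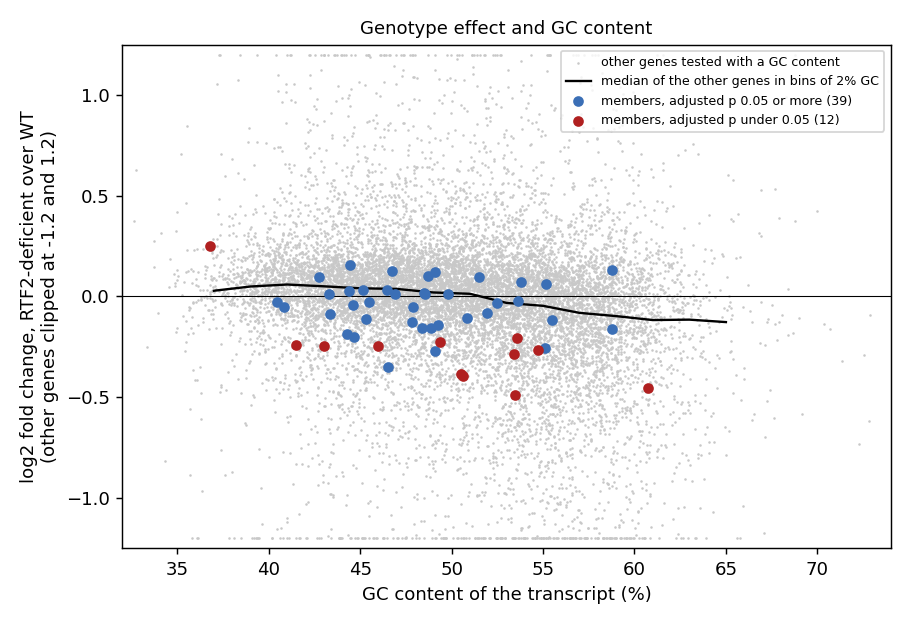
Log2 fold change, RTF2-deficient over WT, against the GC content of the transcript in percent, for all other genes tested (grey, clipped at -1.2 and 1.2), their median in bins of 2% GC (black line), and the 51 members (blue and red). The black line falls with GC content, and the red members lie below it except Orc4, the member with the lowest GC content.

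Genes that work beside the members were read for comparison from a list of 45 other replication genes, all of which were tested. Of these 8 fell, 1 rose and 36 did not pass (edgeR adjusted p under 0.05), where 8.18% of all genes tested fell and 4.98% rose. The median log2 fold change was -0.07. The 3 with the smallest p fell more than any member did. Chtf18, the large subunit of the alternative clamp loader, was at 28.1 to 37.1 CPM in WT and 16.5 to 20.7 CPM in RTF2-deficient libraries, a log2 fold change of -0.81 ± 0.081 (SE; edgeR adjusted p = 7.2e-05). Rtel1, a helicase that unwinds secondary structures, was at 43.6 to 51.1 CPM and 27.7 to 34.4 CPM, a change of -0.61 (edgeR adjusted p = 0.000136). Rnaseh2c, a subunit of the nuclease that removes ribonucleotides from DNA, was at 12.6 to 21.3 CPM and 7.18 to 8.17 CPM, a change of -1.02 (edgeR adjusted p = 0.000145). It shares 426 of 1126 exon bases with Kat5 on the opposite strand, which fell by 0.46 (edgeR adjusted p = 0.000755). These values are RNA, not protein, and the paper immunoblotted RNASEH2A and RNASEH2C in primary MEFs that received Cre. It reports that neither transcripts nor total protein of RNASEH2A were lost. None of Chtf18, Rtel1 and Rnaseh2c overlapped between genotypes. The other 5 that fell were Tonsl, Lrwd1, Dscc1, Donson and Slbp, and Lig3 rose by 0.20. Of 26 genes of G2 and M phase such as Ccnb1 and Plk1, which mark dividing cells outside S phase, 0 were called by edgeR or DESeq2 and 0 had an unadjusted edgeR p under 0.05. Their median log2 fold change was 0.01, and single values ranged from -0.27 to 0.17. The mean log2 CPM of these 26 genes lay between 6.95 and 7.30 in WT line 1, 7.02 and 7.21 in RTF2-deficient line 1, 6.65 and 7.13 in WT line 2, and 6.79 and 7.12 in RTF2-deficient line 2, so groups overlapped. Interferon-stimulated genes were not called either, with 0 of 18 passing by edgeR or DESeq2 in both lines, 0 at an unadjusted edgeR p under 0.05 and a median log2 fold change of -1.44. The part of sex, interferon state or GC content in the changes of the members was not tested beyond the values given.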

How the data were processed

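RNA from 12 MEF libraries was sequenced as single reads of 75 bases. The deposited table holds raw counts per gene, made by the authors on mm10. The submitters' notes name HTSeq, whereas the paper's methods name Salmon with tximport and UCSC knownGene transcripts, so the counter was not settled here. Neither use of strand nor poly(A) selection is stated in the sources used here. Columns were matched to samples by name. From the counts, genes passing filterByExpr were scaled by TMM and tested with edgeR 4.0.16 (R 4.3.3) quasi-likelihood, with line and genotype as terms for both lines together, and with 4 groups for single lines, their interaction and the WT lines. Adjusted p-values are Benjamini-Hochberg values over 14263 genes, called under 0.05. CPM values use TMM library sizes, and CPM per kb divides by the length of a GENCODE M21 principal transcript. Gene positions and promoters come from RefSeq on GRCm38. The exact test permuted genotype within lines. Libraries held 39360167 to 44695002 counts, and 3 counts, the floor for a count of 0, equal at most 0.0762 CPM. Library triplicates differed by more than counting noise (chi-square per degree of freedom 20.9 to 189), so all were kept. The edgeR test was checked on simulated counts. Alternatives were DESeq2 1.42.0, voom (limma 3.58.1) with group as a random block, RLE size factors, no filter, a replicate block, summed triplicates, each library left out, and GC content offsets. Values in every library are given for Prim1, Primpol and Pcna, the 6 members with the smallest p for genotype, the 4 for the interaction, the 4 between WT lines, members called in both lines and the extremes per length, and other values by role. Values printed for further members were chosen after they were seen. The members and gene lists were chosen with earlier results of these data known.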

Additional observations from a re-analysis of the deposited data

How the results depend on the processing

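Across both lines, 11 members were lower and 1 higher, and the counts were 11 and 1 with RLE size factors, 10 and 1 without a filter on low counts and 14 and 1 by DESeq2. They were 18 and 1 by voom with group as a random block. The share of all genes called was 13.2% in the main edgeR fit, 13.4% with RLE size factors, 8.18% without the filter, 19.3% by DESeq2 and 24.2% by voom. The correlation within groups that voom estimated was negative (-0.148). That fit thus treated libraries of a group as less alike than independent ones. The counts were 0 and 0 with triplicates summed, where only 4 samples remain. Leaving out 1 library at a time gave 9 to 13 lower and 0 to 1 higher, with a median log2 fold change of -0.10 to -0.05. In line 1 it gave 0 to 4 lower with a median of -0.126 to -0.048, and in line 2 it gave 2 to 10 lower and 0 to 1 higher. The interaction median was -0.023 to 0.054, and 0 to 1 members were higher in WT line 2, where 8.69% to 15.4% of genes differed between WT lines. DESeq2 gave 5 lower in line 1, 1 higher in line 2 and 3 higher between WT lines. Orc3, Mcm7, Gins2, Pola1, Pola2, Pold1, Pole, Rfc2 and Rfc5 kept their call in 19 of 20 alternatives, all but the summed triplicates, Wdhd1 in 16, Orc4 in 17 and Lig1 in 8. The sign of Gins1 turned when libraries were left out (-0.048 to 0.060), and with GC content offsets it was -0.015, or -0.0094 with the replicate block added. Mcm3 moved to 0.00086 and 0.00078 under the same corrections, which were chosen after seeing the data, and the cause was not tested. Same-numbered libraries were not paired, since the correlation of their deviations was 0.43 to 0.625 in line 1, each best with its own number, but -0.587 to 0.17 in line 2. With a replicate block 12 members were lower and 1 higher in both lines together, Cdc7 being the member added, and 11.5% of all genes were called. In line 1 the same 3 were lower, and in line 2 9 were, where 2.50% and 11.4% of genes were called. In line 2 Pola1, Rfc5 and Wdhd1 were gained and Pole and Lig1 were lost. With the block and GC content offsets the counts were 14 and 1, with 11.1% of genes called. With 2 lines, variation between embryos was sampled only once per genotype and line.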
